A study of Mus musculus with 12 samples.

Results

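The macrophages of the splenic red pulp take up aged red blood cells, break down their haem and return the iron to the blood, and 10 genes tied to that work were followed here in monocyte preparations. They were chosen by symbol: Spic, Vcam1, Slc40a1, Hmox1, Blvrb, Slc11a1, Tfrc, Fth1, Ftl1 and Hrg, which make 10 of the 52553 features in the count tables. Of these, 9 were among the 20135 features that passed the expression filter, and Hrg had 0 counts in every library. RNA-seq had been made of cells held by magnetic beads against CD115, the receptor for macrophage colony-stimulating factor, taken in male C57BL/6 mice from spleen and from circulating blood. The 4 groups were splenic cells and blood cells of mice with intact spleen and liver, and splenic cells and blood cells taken 24 h after resection of 70% of the liver in mice that kept the spleen. Each group had 3 libraries and each library pooled the cells of 5 mice, so differences between single animals cannot be seen. No transgene or deletion was involved, and the labels do not say whether the intact animals had sham surgery.

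Haem oxygenase 1 opens the haem ring and frees its iron, which ferritin stores and ferroportin, the product of Slc40a1, exports from the cell. Spic encodes a transcription factor on which red pulp macrophages depend, and VCAM1 is an adhesion molecule that marks their surface. Several transcripts of iron handling carry an iron-responsive element, a stem with a loop that iron regulatory proteins bind when iron is scarce. Bound at the 5′ end of a message it holds back translation, so that protein output of such genes need not follow their RNA. Bound at the 3′ end of the transferrin receptor message it protects that message from decay, which acts on the RNA level itself.

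A search of annotated untranslated regions for this element separated the members into groups. It is shown first, because it marks genes whose translation (5′ sites) or message decay (3′ sites) iron regulatory proteins can control. The search, on the transcribed strand, asked for a 6-base loop CAGTGN with 5 bases before it that pair (G with U allowed) with the 5 bases after it, and an unpaired C ahead of them, in the GENCODE M21 annotation of mouse build GRCm38. It was found in 4 of the 10 members, against 31 of 20580 genes with a 5′ untranslated region (0.151%) and 129 of 20962 with a 3′ untranslated region (0.615%). The pattern is that of an element already known from iron genes, so these shares are a description and not a test of the members. Each site is printed 5′ to 3′ over 27 bases, and the 6 capitals are the loop.

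Fth1, 5′ untranslated region, chr19:9982733-9982759, plus strand: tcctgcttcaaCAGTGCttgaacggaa
Ftl1, 5′ untranslated region, chr7:45459780-45459806, minus strand: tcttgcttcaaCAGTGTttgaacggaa
Slc40a1, 5′ untranslated region, chr1:45925466-45925492, minus strand: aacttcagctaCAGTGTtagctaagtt
Tfrc, 3′ untranslated region, chr16:32631220-32631246, plus strand: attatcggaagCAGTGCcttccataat
Tfrc, 3′ untranslated region, chr16:32631599-32631625, plus strand: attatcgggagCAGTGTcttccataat
Tfrc, 3′ untranslated region, chr16:32631664-32631690, plus strand: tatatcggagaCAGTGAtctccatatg
Tfrc, 3′ untranslated region, chr16:32631711-32631737, plus strand: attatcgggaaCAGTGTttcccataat

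The ferritin chain elements were alike at all printed positions but C3T and C17T, counted from the first printed base with the Fth1 base given first. The 3 genes with the element in the 5′ region (Fth1, Ftl1, Slc40a1) encode iron storage and export, and Tfrc, which encodes iron uptake, held 4 sites in its 3′ region. None of the other 6 members, and none of the 43 further pathway genes searched, held a match to this strict pattern in either region. A match describes the letters of the reference and says nothing about the RNA of these cells, and the count tables hold no information on translation.

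All libraries held between 36990033 and 46401368 estimated counts. The library sizes that TMM scaling gave ran from 29438801 to 47910181, lowest in blood after resection. Levels are in CPM, the count of a gene relative to the library total as edgeR scales it, with totals adjusted by TMM factors. A gene was called where edgeR's quasi-likelihood test, fitted over all 12 libraries and adjusted by Benjamini-Hochberg over all 20135 features, gave an adjusted p under 0.05 and the log2 fold change exceeded 1 in either direction. The labels call the cells monocytes, yet RNA of other cells was present in different amounts. Summed markers of peritoneal macrophages (Gata6, Prg4, Alox15, Garnl3) ran from 3.84 to 12.5 CPM in spleen, from 255 to 850.3 CPM in intact blood and from 3756 to 4653 CPM in blood after resection. Haemoglobin took 0.0814% to 0.363% of the counts in intact spleen, 0.795% to 3.47% in spleen after resection and 13.2% to 34.2% in blood. Intact blood library 3 stood apart, with 1445 CPM of summed proliferation genes against 83.4 and 63.7 CPM in the other intact blood libraries. It also held 1943 CPM of T-cell markers against 556 and 568 CPM, and 3756 CPM of monocyte markers against 9681 and 6813 CPM. Of the intact blood libraries it was the lowest for Spic, Slc40a1, Hmox1, Blvrb, Slc11a1, Fth1 and Ftl1, and the highest for Vcam1 and Tfrc. In bulk samples, fewer cells of a type and less RNA per cell cannot be told apart.

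After resection, 8 of the 9 members tested rose in the blood cells and 0 fell, where 7.8% of all features were called higher, 6.11% lower and 13.9% in either direction. The median log2 fold change was 2.31 over these members and -0.10 over all features tested. In all 9 the blood libraries of the 2 states did not overlap, 8 lying higher and Tfrc lower, where 19.4% of all features lay apart higher, 19.0% lower and 38.4% in all. In the splenic cells Hmox1 alone passed, that is 1 of 9, where 0.78% of all features were called higher and 1.38% in all. The splenic median was 1.14, against 0.05 over all features, and 7 of the 9 lay higher in all libraries after resection than in all intact ones (17.4% of all features did so, and 35.1% did not overlap in either direction). The splenic count was unsteady, running from 0 to 3 when single libraries were left out, where calls over all features ran from 1 to 1025. DESeq2 called 4 of the 9, and 1564 of all features (7.77%).

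**Figure D1:**
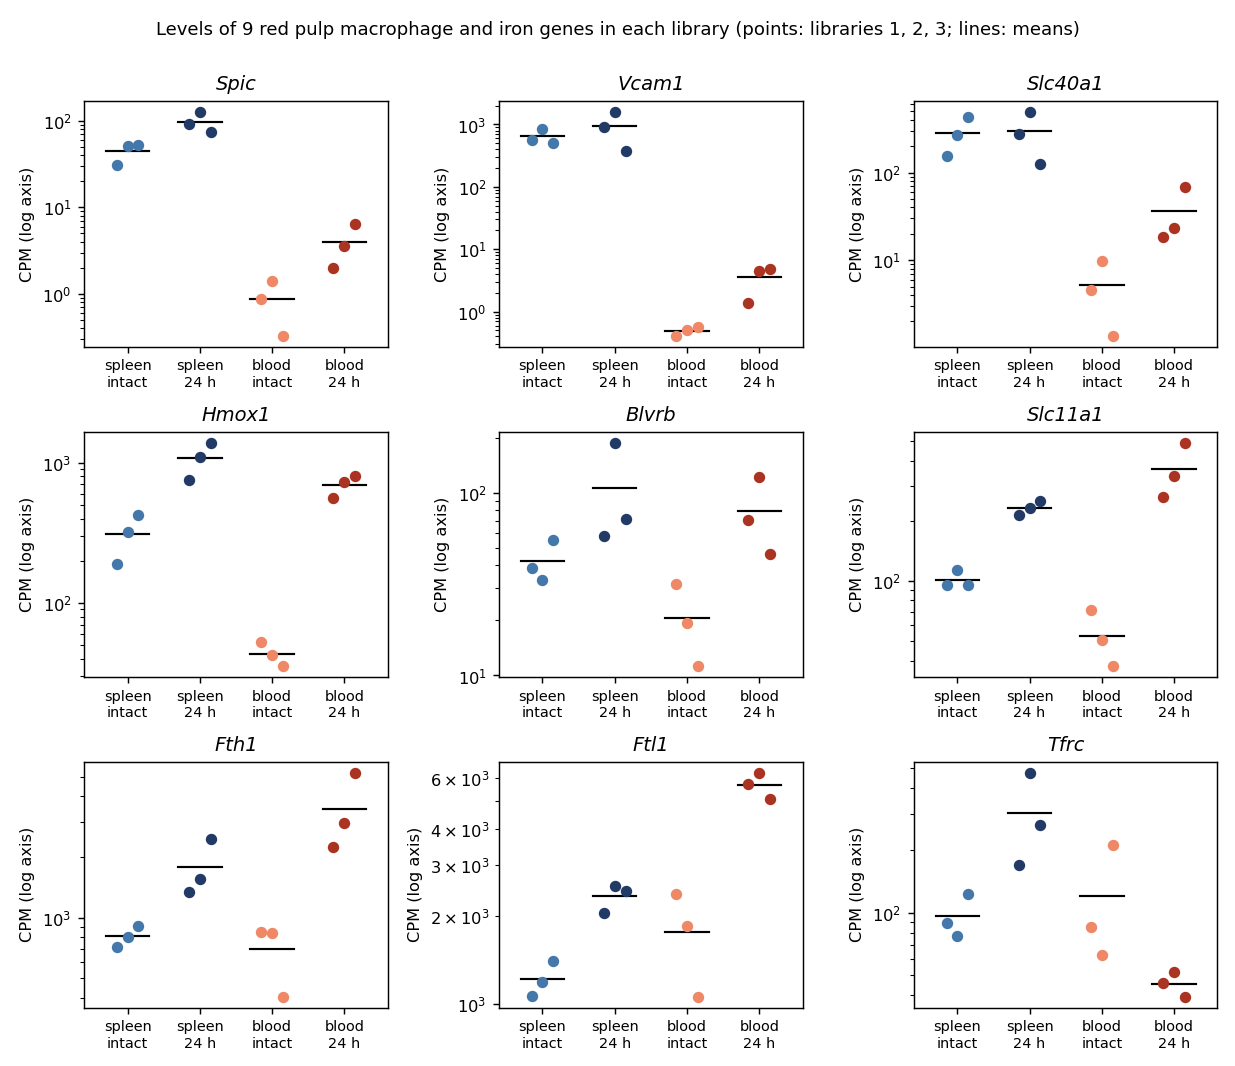
Level of each of 9 genes in every library, in CPM on a log axis, by tissue and state, where "24 h" marks the groups after resection, points are libraries 1, 2 and 3 from left to right and lines are group means. For Spic, Vcam1 and Slc40a1 every blood library lies below every splenic one. For Slc40a1 after resection the nearest values are 67.7 CPM in blood and 127 CPM in spleen. Tfrc is the gene whose blood libraries lie lower after resection than before.

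Spic, Vcam1 and Slc40a1, the genes that set red pulp macrophages apart, were higher in spleen than in blood in both states. Spic stood at 31.3, 51.6 and 53.3 CPM in intact spleen, 93.4, 126 and 75.0 CPM in spleen after resection, 0.881, 1.41 and 0.328 CPM in intact blood, and 1.98, 3.53 and 6.42 CPM in blood after resection. The 4 groups did not overlap, and every splenic library lay above every blood library. Against intact spleen, intact blood was lower by 52.2-fold (log2 fold change -5.71, SE 0.60, adjusted p = 0.00129), and the gap after resection was 24.6-fold (-4.62, SE 0.56, adjusted p = 0.00106). Within blood Spic rose by 2.20 on the log2 scale (SE 0.54, adjusted p = 0.0190), and within spleen the change was 1.11 (SE 0.49, adjusted p = 0.228) with a 95% interval from 0.03 to 2.19. The blood call was lost without intact blood library 1 (2.23), without resected blood library 3 (1.68) and in a fit of the blood libraries alone (2.19).

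Vcam1 measured 574, 855 and 506 CPM in intact spleen and 916, 1572 and 377 CPM after resection. In intact blood it was at 0.413, 0.514 and 0.568 CPM, from 15 to 26 counts a library. After resection the blood libraries held 1.37, 4.48 and 4.78 CPM. The splenic states overlapped, since resected spleen library 3 was the lowest of the 6 splenic values. The blood libraries separated completely, and the rise in blood was 2.82 on the log2 scale (SE 0.61, adjusted p = 0.0115). Even so blood held 0.0773% of the splenic mean when intact and 0.371% after resection. The log2 difference between blood and spleen in intact animals was -10.32 (SE 0.79, adjusted p = 0.000240), the largest of the 9 members. In spleen the change with resection was 0.57 (SE 0.52, adjusted p = 0.583), with an interval from -0.59 to 1.72, and it ran from 0.0017 without resected spleen library 2 to 0.95 without resected spleen library 3.

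Slc40a1, the gene of ferroportin, had 157, 266 and 429 CPM in intact spleen and, once the liver was resected, 274, 489.7 and 127 CPM. Blood held 4.57, 9.76 and 1.38 CPM before and 18.3, 23.3 and 67.7 CPM after. Splenic values overlapped widely between the states, while each blood library after resection exceeded each intact one. The rise in blood was 2.80 on the log2 scale (SE 0.80, adjusted p = 0.0339). It was not called in 7 of 22 alternatives, among them without resected blood library 3 (2.00, adjusted p = 0.132). No shift was measured in spleen (0.06, SE 0.74, adjusted p = 0.978), but the interval from -1.59 to 1.72 allows a change of either sign, and the sign turned without intact spleen library 1 (-0.23) or resected spleen library 2 (-0.50). Blood lay lower than spleen by -5.76 (SE 0.92, adjusted p = 0.00639) in intact animals and by -3.02 (SE 0.80, adjusted p = 0.0275) after resection, the latter lost in 6 of 22 alternatives.

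Over the 12 libraries the log2 levels of these 3 genes ran together, with Pearson's r of 0.97 for Spic and Vcam1, 0.97 for Spic and Slc40a1, and 0.93 for Vcam1 and Slc40a1. The libraries fall into 2 tissues, which alone gives a high r, and these values are a description. Among 8997 genes with a symbol and a mean of at least 10 CPM, the patterns most like that of Spic included those of Postn (0.98), Epb41l3 (0.98), Vcam1 (0.97) and Rogdi (0.97). For Slc40a1 they included Slc35c2 (0.99), Trpm2 (0.97), Spic (0.97) and Fbxl4 (0.97).

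Other genes that mark red pulp macrophages did not all follow these 3. Of 13 further markers, edgeR called 5 lower in intact blood than in intact spleen (Axl, C6, Itgad, Mertk, Treml4) and 0 higher, where 3.49% of all features were called lower, 3.86% higher and 7.35% in all. Of the members themselves 4 of 9 were called lower, and their median was -1.03 against -0.02 over all features. In 6 of the 9 all intact blood libraries lay below all intact splenic ones and in 0 above, where 20.9% of all features lay apart lower, 13.6% higher and 34.5% in all. After resection 6 of the 13 markers were lower in blood (Axl, C6, Hpgd, Itgad, Pparg, Treml4) and Adgre1, which encodes the F4/80 antigen shared by many macrophages, was higher, while the members had 4 lower and 1 higher, against 6.87% and 6.28% of all features and 13.2% in all. By library, 4 members lay apart lower and 2 higher in blood after resection, where 25.1% and 17.2% of all features did and 42.4% in all. Itgad, which encodes the CD11d integrin chain, held 136, 222 and 235 CPM in intact spleen and 0.523, 0.540 and 0.328 CPM in intact blood. After resection it held 446, 725 and 183 CPM in spleen and 0.244, 0.170 and 0.141 CPM in blood. All 3 blood values after resection were thus below all 3 intact ones, in the group where Spic, Vcam1 and Slc40a1 rose (Itgad -1.30, SE 0.63, adjusted p = 0.169). This fall was not called, and the values after resection were not far above the 0.0844 to 0.102 CPM that 3 counts give in those libraries. C6, a complement gene, was at 0.413, 0.719 and 0.262 CPM in intact blood and 0.427, 1.05 and 0.281 CPM after resection, which overlap. The 5 markers called higher in blood after resection than in intact blood, where 7.8% of all features were, were Adgre1, C1qa, C1qb, C1qc and Mertk. In the spleen 0 of the 13 passed with edgeR, although 13 had a positive log2 fold change, 8 had an unadjusted p under 0.05 (20.8% of all features) and DESeq2 called 4 (7.77% of all features).

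**Figure D2:**
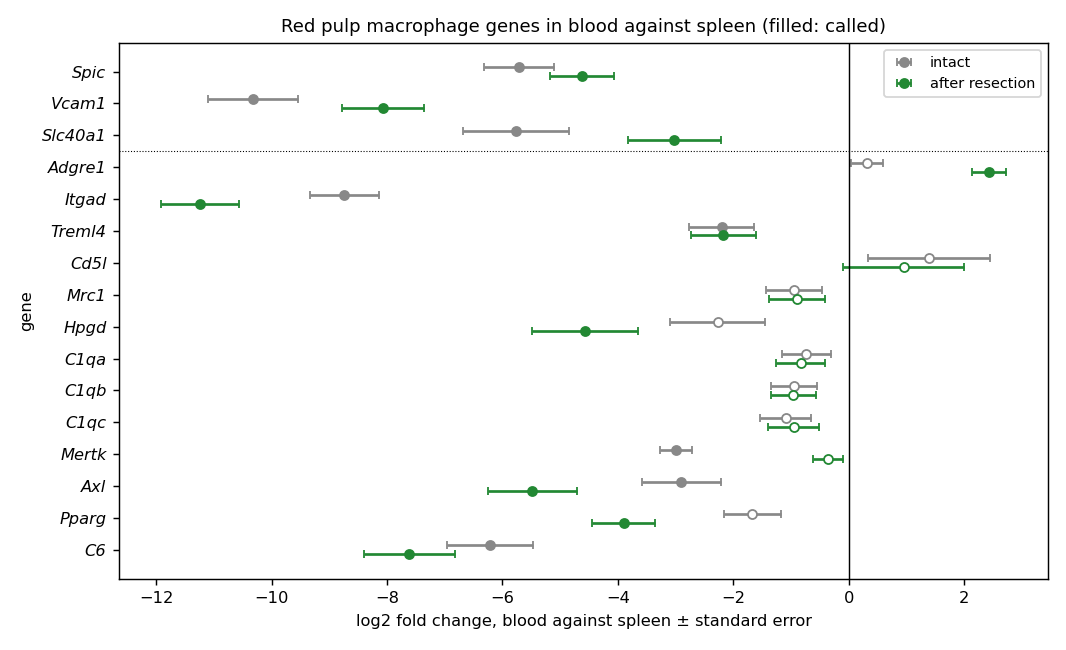
Log2 fold change of blood against spleen with its standard error for Spic, Vcam1 and Slc40a1 (above the dotted line) and 13 further red pulp macrophage markers, in intact animals (grey) and after resection (green), where filled points passed the test. Itgad, Vcam1 and C6 lie farthest to the left, and Adgre1 after resection lies to the right at 2.43.

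The blood rise of these 3 genes went along with rises and falls of other cells' markers. All 4 peritoneal macrophage markers and 8 of 8 neutrophil markers were called higher in blood after resection, where 7.8% of all features were. The neutrophil sum was 82.8 to 263 CPM in intact blood and 2863 to 15215 CPM after resection. In the same comparison 4 of 5 T-cell markers (Cd3d, Cd3e, Cd3g, Lck) were called lower, where 6.11% of all features were. Of the 10 monocyte markers tested, Cx3cr1 and Spn were called lower and F13a1 and Itgam higher, where 6.11% and 7.8% of all features were. The part of these cells in the result was not tested. Resected spleen library 3 was the lowest of the 6 splenic libraries for 2 of the 9 members (Vcam1, Slc40a1) and for 5 of the 13 further markers (Cd5l, Mrc1, Hpgd, Axl, Pparg), against 23.2% of all features tested. The same library had the most neutrophil RNA of the splenic ones, 11377 CPM against 4149 and 4386 CPM in the other resected spleens, and the least B-cell marker RNA, 1071 CPM.

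**Figure D3:**
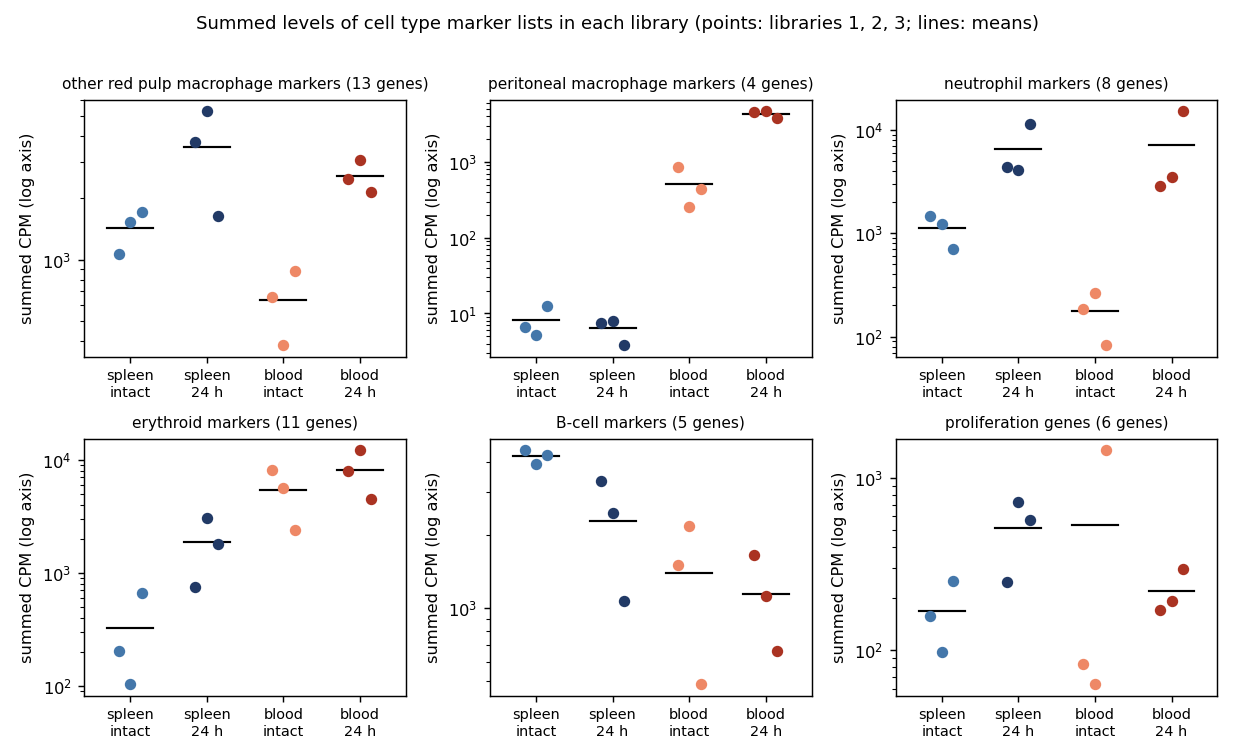
Summed CPM of 6 marker lists in each library on a log axis, by tissue and state, where points are libraries 1, 2 and 3 and lines are group means. Peritoneal macrophage markers are near the bottom of their axis in all splenic libraries, intact blood library 3 is set apart by proliferation genes, and library 3 of each group after resection has the most neutrophil RNA.

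Hmox1 and Blvrb encode enzymes of haem breakdown, haem oxygenase 1 and biliverdin reductase B. Hmox1 stood at 188, 320.2 and 425 CPM in intact spleen and 753, 1096 and 1389 CPM after resection. In blood it went from 52.8, 42.3 and 35.5 CPM to 565, 726 and 801 CPM. The states were apart in both tissues, and the lowest blood value after resection exceeded every value of intact spleen. The rise was 16.0-fold in blood (log2 SE 0.36, adjusted p = 0.000428), the largest of the members, and 3.47-fold in spleen (1.79, SE 0.33, adjusted p = 0.0345). All 22 alternatives kept the blood call, and 10 of them lost the splenic one at log2 values from 1.53 to 1.82. Intact blood was 7.15-fold below intact spleen (-2.84, SE 0.34, adjusted p = 0.00196). After resection the tissues overlapped, at -0.63 (SE 0.32, adjusted p = 0.194, interval -1.34 to 0.08), so that the order of the groups was resected spleen, resected blood, intact spleen and intact blood, with only the first pair overlapping.

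Blvrb held 38.8, 33.4 and 55.0 CPM in intact spleen, 57.9, 188 and 71.7 CPM in spleen after resection, 31.5, 19.3 and 11.2 CPM in intact blood and 70.5, 122 and 46.2 CPM in blood after resection. States were apart in both tissues, by a narrow margin in spleen, where library 2 gave most of the difference. The blood rise was 3.84-fold (1.94, SE 0.55, adjusted p = 0.0313) and was lost in 6 of 22 alternatives. Spleen changed by 1.32 (SE 0.53, adjusted p = 0.196) and by 0.61 without resected spleen library 2. The 6 splenic libraries had the same order for Blvrb as for the summed erythroid markers, which ran from 104 to 661 CPM in intact spleen and from 756 to 3081 CPM after resection with library 2 highest. This order was shared by 356 of the 20135 features (1.77%). All 11 erythroid markers tested had an unadjusted p under 0.05 for the splenic change (20.8% of all features), though edgeR called 0 after adjustment and DESeq2 called 10 (7.77% of all features). In blood the erythroid sum was higher, 2398 to 8169 CPM when intact and 4535 to 12123 CPM after resection. Blvrb, by contrast, lay lower in blood than in spleen in intact animals and overlapped after resection. Within each blood group the order of the libraries by Blvrb was that of the erythroid sum. The part of erythroid RNA in the Blvrb values was not tested.

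Of 4 further genes of haem breakdown (Hmox2, Blvra, Por, Abcc1), Por, the electron donor of haem oxygenase, was called higher in blood after resection, from 61.8, 70.5 and 49.7 CPM to 103, 129 and 212 CPM (1.29, SE 0.29, adjusted p = 0.0127). Hmox2, the constitutive haem oxygenase, differed by less than the fold limit in blood (0.72, SE 0.12, adjusted p = 0.00323) and was at -0.01 in spleen (SE 0.12, adjusted p = 0.983). In the haem and haemoglobin uptake list, 3 of 8 tested genes rose in blood, where 7.8% of all features did. These were the receptor for haemoglobin bound to haptoglobin Cd163 (3.67, SE 0.46), the haem-haemopexin receptor Lrp1 (1.52, SE 0.28) and Hp, the gene of haptoglobin (4.39, SE 0.95). The uptake list had 0 calls in spleen with edgeR, where 3 of 8 had an unadjusted p under 0.05 (20.8% of all features) and DESeq2 called 3 (7.77% of all features).

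The member Hrg names histidine-rich glycoprotein, a plasma protein made by the liver, and it had 0 counts in all 12 libraries. A count of 0 allows a level of up to 0.0626 to 0.102 CPM, set by 3 counts a library, and covers counting error only. Of 6 hepatocyte markers 0 passed the filter, and their sum stayed at or below 1.64 CPM in every library. The haem transporter known as HRG-1 has another symbol, Slc48a1, and it was well measured. Slc48a1, which carries haem out of the phagolysosome, stood at 63.3, 66.2 and 116 CPM in intact spleen, 145, 241 and 183 CPM in spleen after resection, 442, 310.4 and 159.9 CPM in intact blood and 458, 596 and 343 CPM in blood after resection. It was thus higher in blood than in spleen, opposite to Spic, Vcam1 and Slc40a1, by 1.89 in intact animals (SE 0.40, adjusted p = 0.0197) and 1.30 after resection (SE 0.39, adjusted p = 0.0448). Resection moved it by 0.62 in blood (adjusted p = 0.285) and 1.21 in spleen (adjusted p = 0.122), neither called.

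Slc11a1 encodes NRAMP1, which pumps iron and manganese out of the phagosome. It measured 95.1, 114 and 96.1 CPM in intact spleen and 214, 231 and 252 CPM after resection. Blood went from 71.3, 50.6 and 37.6 CPM to 264, 334 and 492 CPM. No 2 groups overlapped, and the tissue order turned, with blood lowest when intact and highest after resection. The blood rise of 2.77 (SE 0.28, adjusted p = 0.000616) was kept in all 22 alternatives. The splenic change of 1.19 (SE 0.27) fell just short at an adjusted p of 0.0518 and was called in 4 alternatives, DESeq2 included. Between tissues neither state was called, at -0.94 in intact animals (SE 0.27, adjusted p = 0.0546) and 0.64 after resection (SE 0.26, adjusted p = 0.116).

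The ferritin genes Fth1 (heavy chain, which oxidises iron) and Ftl1 (light chain, which helps to form the mineral core) were abundant. Per kilobase of exon, Ftl1 had the highest mean of the members in each group, 907 CPM in intact spleen, 1751 in spleen after resection, 1317 in intact blood and 4225 in blood after resection. The mean of Fth1 was 234, 514, 202 and 999.8 CPM per kilobase in the same order, above that of Hmox1 (178, 24.9 and 398) in all groups but spleen after resection, where Hmox1 had 616. Lengths joined the exons of all annotated transcripts, 3469 bases for Fth1, 1340 for Ftl1 and 1751 for Hmox1, and can exceed those of the messages present. The order per kilobase depends on them. In plain CPM the mean of Fth1 in spleen after resection, 1784, was above that of Hmox1, 1079. Fth1 stood at 718, 802 and 913 CPM in intact spleen, 1344, 1562 and 2446 CPM in spleen after resection, 853, 839 and 406 CPM in intact blood and 2249.8, 2939 and 5216 CPM in blood after resection. Intact spleen and intact blood overlapped, as did the tissues after resection, while the states were apart in both tissues. Ftl1 stood at 1062, 1184 and 1399.5 CPM in intact spleen, 2049, 2544 and 2446 CPM in spleen after resection, 2386, 1849 and 1057 CPM in intact blood and 5709.6, 6216 and 5060.1 CPM in blood after resection. Blood after resection lay above all other groups for Ftl1.

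In blood Fth1 rose 4.96-fold (2.31, SE 0.40, adjusted p = 0.00412) and Ftl1 3.21-fold (1.68, SE 0.28, adjusted p = 0.00350), and both calls held in all 22 alternatives. The splenic changes were 1.14 for Fth1 (SE 0.38, adjusted p = 0.133) and 0.95 for Ftl1 (SE 0.27, adjusted p = 0.0949), with intervals from 0.28 to 1.99 and from 0.34 to 1.56. Ftl1 was also higher in blood than in spleen after resection (1.27, SE 0.27, adjusted p = 0.0118), a call that was lost with library sizes alone (0.64). That scaling moved the median of all features by -0.62 in this comparison, from -0.14 to -0.76. Ferritin pseudogenes and other near copies could share reads with these genes. Only symbols starting Fth1-ps, Ftl1-ps, Fthl17, Ftl1l or Ftl2 were looked for, so near copies under other names were not checked. The pseudogene Ftl1-ps1 had at most 5 counts in a library and the 6 related Fthl17 genes had 0. How the authors' counting divided such reads is not given in the sources used here.

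The ratio of Fth1 to Ftl1 counts, which does not depend on library scaling, set the tissues apart in intact animals. It was 0.676, 0.677 and 0.652 in intact spleen and 0.357, 0.454 and 0.384 in intact blood, without overlap (two-sided exact permutation test, p = 0.1, the smallest that 3 against 3 libraries allow, so 0.05 could not be reached). After resection it was 0.656, 0.614 and 1.00 in spleen and 0.394, 0.473 and 1.03 in blood. Libraries 1 and 2 of each tissue stayed near the intact values and library 3 rose in both. Library 3 of each tissue also had the highest sum of the neutrophil genes S100a8 and S100a9, 8991 CPM in spleen and 13287 CPM in blood, against 2358 to 3489 CPM in the other 4 libraries after resection. The ratio did not separate the states in spleen (exact permutation p = 0.9) or blood (p = 0.2), and the part of neutrophil RNA in it was not tested. The relation was noticed in these libraries and is given as values only.

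**Figure D4:**
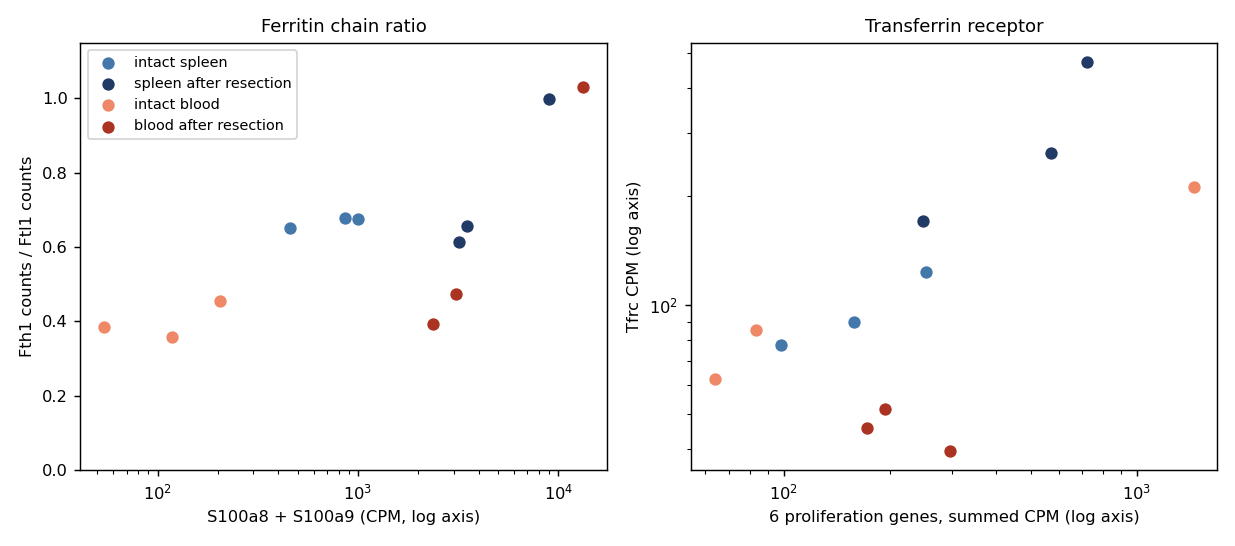
Left, the ratio of Fth1 to Ftl1 counts against the sum of S100a8 and S100a9 in CPM on a log axis, and right, Tfrc against 6 summed proliferation genes, both in CPM on log axes, with 1 point a library coloured by group. The 2 highest ratios, 1.00 and 1.03, belong to the libraries with the most S100a8 and S100a9, and the 3 blood libraries after resection have the lowest Tfrc values, from 39.5 to 51.6 CPM.

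Tfrc, the gene of the transferrin receptor that brings iron into the cell, was the 1 member with opposite directions in the tissues. It stood at 89.8, 77.5 and 123 CPM in intact spleen and 171, 471 and 264 CPM after resection. Blood held 85.5, 62.5 and 213 CPM before and 45.8, 51.6 and 39.5 CPM after. All splenic libraries after resection lay above all intact ones, whereas each blood value after resection was under each intact one. Neither change passed on its own, at 1.64 in spleen (SE 0.48, adjusted p = 0.0985) and -1.40 in blood (SE 0.48, adjusted p = 0.0623). After resection Tfrc was 6.61-fold lower in blood than in spleen (-2.73, SE 0.50, adjusted p = 0.00598), a call kept in all 22 alternatives, while in intact animals the tissues overlapped (0.31, SE 0.47, adjusted p = 0.735).

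The high intact blood value belonged to library 3, the one with 1445 CPM of proliferation genes, and without it the blood change was -0.70 (adjusted p = 0.217). Proliferating cells are known to make much transferrin receptor. Blood after resection held more proliferation RNA (173, 194 and 296 CPM) than intact blood libraries 1 and 2 (83.4 and 63.7 CPM), but less Tfrc. Of the blood libraries after resection, the one with 296 CPM had the lowest Tfrc. Among splenic libraries, resected library 2 was the highest for both, with 722 CPM of proliferation genes. In the spleen, the order of the 6 libraries by Tfrc was that of the summed erythroid markers, as for Blvrb, and erythroid precursors are another known site of high Tfrc. Without resected spleen library 2, which had the most erythroid RNA, the splenic change was 1.17 (adjusted p = 0.252). The parts of proliferating and erythroid cells in the Tfrc values were not tested. The genes whose pattern over the 12 libraries was most like that of Tfrc were Slbp (Pearson's r 0.98), Cep76 (0.96), Myh10 (0.96), Ccne1 (0.95) and Ppm1g (0.95), and Slbp and Ccne1 are known for their roles in the cell cycle.

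The difference of the resection effect between blood and spleen was tested directly. None of the 9 members passed with edgeR, where 0.283% of all features did (0.219% higher, 0.0646% lower), while 5 had an unadjusted p under 0.05 (17.3% of all features) and DESeq2 called 4 (Vcam1, Hmox1, Slc11a1, Tfrc), where it called 5.78% of all features. For 8 members the log2 change was larger in blood. The difference was 2.21 for Hmox1 (SE 0.45, adjusted p = 0.0819), 1.58 for Slc11a1 (SE 0.37, adjusted p = 0.112), 2.25 for Vcam1 (SE 0.80, adjusted p = 0.213) and 2.74 for Slc40a1 (SE 1.08, adjusted p = 0.241). For Tfrc it was -3.04 (SE 0.67, adjusted p = 0.0967), and -2.34 without intact blood library 3. A stronger response in blood was thus not shown for any single member with edgeR. The 2 tissue comparisons and the 2 resection comparisons share libraries, so their fold changes are not independent of each other.

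**Figure D5:**
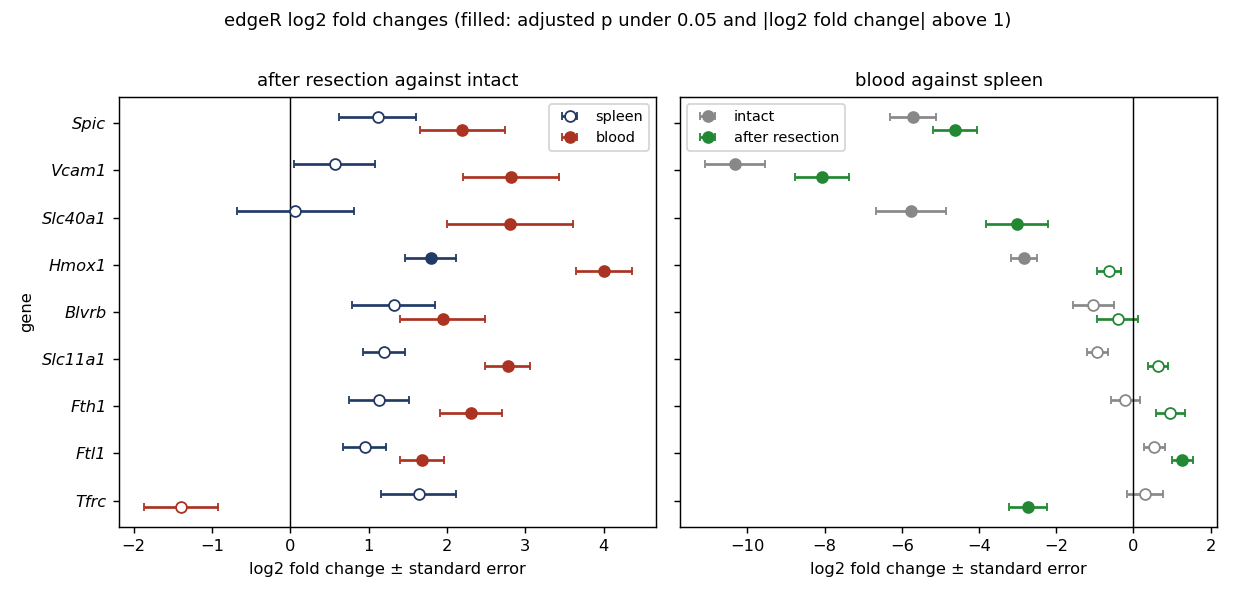
Log2 fold change with its standard error for 9 genes, left after resection against intact in spleen (blue) and blood (red), right blood against spleen in intact animals (grey) and after resection (green), where filled points passed the test. In blood 8 genes lie right of 0 and are filled, Tfrc lies left at -1.40, and in spleen only Hmox1 is filled.

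Genes around the members in iron handling changed in part. In the list of 18 iron transport and storage genes, 16 were tested and 5 rose in blood after resection, where 7.8% of all features did. These were Lcn2 and Ltf, which encode iron-binding proteins of neutrophil granules, Steap4, an iron reductase, Trf, which encodes transferrin, and the zinc and iron importer Slc39a14. Slc39a14 went from 17.8, 17.6 and 19.1 CPM to 51.0, 75.5 and 124 CPM (2.20, SE 0.33, adjusted p = 0.00238) and stood at 11.2 to 15.2 CPM in intact spleen and 9.74 to 18.7 CPM after resection, so its rise was seen in blood. Its difference between tissues had an adjusted p of 0.0830. Ltf was the 1 gene of this list called in spleen (1.89, SE 0.30, adjusted p = 0.0253). Ncoa4, which delivers ferritin for degradation, was at 0.06 in blood (SE 0.28, adjusted p = 0.909) and 0.42 in spleen (SE 0.28, adjusted p = 0.429).

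Among 10 tested regulators of iron and haem genes, 3 rose in blood after resection, where 7.8% of all features did. These were Fbxl5, which senses iron and degrades an iron regulatory protein, and the transcription factor genes Mitf and Tfec. Tfec went from 2.56, 2.65 and 1.31 CPM to 17.3, 29.6 and 38.9 CPM (3.72, SE 0.54, adjusted p = 0.00217), with all libraries apart. In intact blood Nfe2l2, the gene of NRF2, a known activator of Hmox1 and ferritin genes, was lower than in spleen (-1.13, SE 0.23, adjusted p = 0.0156), as were Nr1h3 and Tfec. Bach1, the gene of the haem-sensing repressor of Hmox1, was higher in blood than in spleen after resection (1.39, SE 0.32, adjusted p = 0.0154). The iron regulatory protein genes Aco1 and Ireb2 were not called in any comparison, and their blood changes were -0.21 (SE 0.17) and 0.29 (SE 0.13). Hamp, the gene of hepcidin, the hormone that degrades ferroportin, had at most 0.0437 CPM in a library, below the limit that a count of 0 allows.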

How the data were processed

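CD115-positive cells of spleen and blood were sequenced as RNA in 12 libraries, 3 for each of 4 groups, taken from the sample labels. The authors deposited estimated counts per gene or transcript entry, not corrected for depth or length. The submitters' processing notes name STAR and GRCm39, and the counting tool is not given in the sources used here. The 67088 entries were summed to 52553 features through RefSeq names, unassigned transcripts (1.75% to 4.33% of a library) were left out, and counts were rounded. A single accession entry was added to Fth1, and the other members each had 1 entry. filterByExpr kept 20135 features. edgeR 4.0.16 in R 4.3.3 scaled them with TMM and fitted a robust quasi-likelihood model to all 12 libraries without covariates (common dispersion 0.312). SE is the log2 fold change over the square root of F, and 95% intervals use the degrees of freedom of the test. Libraries are pools with no stated link between groups, and p-values measure the spread between them.

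Alternatives were DESeq2 1.42.0, RLE factors, library sizes alone, haemoglobin genes left out, other low-count filters, no fold limit, entries as deposited, only the groups compared, the replicate number as a block, and each library left out in turn. The members and lists were chosen with earlier results of these data known. Named genes were the members, list genes called in the comparison or most abundant in their list, and the 5 genes most like Spic, Slc40a1 and Tfrc, of which 1 is not reported here. Ncoa4, Aco1, Hamp, the ferritin copies and the S100a8 and S100a9 sum were added after their values were seen. Element coordinates come from GRCm38, not the build of the submitters' notes, and were not used with the counts, which carry no coordinates. Protein sequences and promoters were not used here.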

Additional observations from a re-analysis of the deposited data

Results flagged for a closer look

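Mertk encodes a receptor for dying cells and marks red pulp macrophages among others. Of the lists followed here, it was the 1 gene that edgeR called for the difference of the resection effect between tissues. In that test edgeR called 0.283% of all features. DESeq2 called 5.78% of all features there, among them 4 of the 9 members, 4 of the 13 further red pulp markers and genes of other lists. Mertk stood at 42.8, 66.4 and 71.7 CPM in intact spleen and 116, 121 and 80.5 CPM after resection, and went from 9.17, 5.40 and 8.15 CPM to 71.6, 81.6 and 94.7 CPM in blood. The log2 change was 3.45 in blood (SE 0.28) and 0.81 in spleen (SE 0.26), a difference of 2.63 (SE 0.37, adjusted p = 0.0334 with edgeR). With the replicate number as a block the adjusted p was 0.112, with library sizes alone it was 0.0575, and with a library left out it lay between 0.0379 and 0.104, over the threshold in 7 of 12 cases.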

How the results depend on the processing

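Of 981 values of the members under the alternatives, 921 kept direction and side of the threshold, 33 lost a call, 20 gained one and 7 turned sign. The sign turned for Slc40a1 in spleen (library sizes alone -0.074, and -0.50 to 0.48 with a library left out, below 0 without intact spleen library 1 or resected spleen library 2), Tfrc between intact tissues (library sizes alone -0.0089, and -0.28 to 0.66, below 0 without intact blood library 3), Fth1 there (-0.32 to 0.17, above 0 without intact blood library 3) and Blvrb between tissues after resection (-0.77 to 0.40, above 0 without resected spleen library 2), none of them called. The cause was not tested.

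Members called with resection in blood were 8, or 5 with only the groups compared and 6 to 8 with a library left out. In spleen they were 1, or 4 in DESeq2, 2 with at least 10 counts in every library, 0 with no low-count filter and 0 to 3 with a library left out. Between tissues they were 4 (4 to 5) in intact animals and 5 (4 to 6) after resection. For the difference of effects they were 0 (0 to 0), and 4 in DESeq2.

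Over all features, resection in blood called 2801, with 4242 without the fold limit, 1590 with only the groups compared and 1627 to 2814 with a library left out. Resection in spleen called 277, with 1564 in DESeq2, 489 with at least 10 counts, 101 with no low-count filter and 1 to 1025 with a library left out. Intact tissues gave 1480, with 2568 in DESeq2, 2703 with library sizes alone, 796 with only the groups compared and 531 to 1494 with a library left out. Tissues after resection gave 2648, with 5666 with library sizes alone and 1450 to 3625 with a library left out. The difference of effects gave 57, with 1163 in DESeq2, 99 with at least 10 counts, 23 with library sizes alone, 22 with no low-count filter and 5 to 93 with a library left out.

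Library sizes alone split the calls after resection into 782 higher and 4884 lower in blood against spleen, where TMM gave 1264 and 1384 and RLE 1429 and 1133. In intact animals the split was 649 and 2054, where TMM gave 778 and 702. For resection in blood it was 1132 and 2820 (TMM 1570 and 1231), and for resection in spleen 69 and 124 (TMM 157 and 120).

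Most libraries with the same replicate number did not deviate together: of 18 such pairs, 2 had deviations correlated above 0.1 (range -0.05 to 0.19). Both of these joined blood and spleen after resection, replicate 2 at 0.13 and replicate 3 at 0.19, while replicate 1 of these groups had 0.04. The labels do not say whether these blood and splenic cells came from the same mice. With the replicate block the members called were 7, 1, 4, 4 and 0 in the 5 comparisons above, Slc40a1 losing its calls in blood (2.84) and between tissues after resection (-3.02). Over all features the block gave 150 for resection in spleen and 1 for the difference of effects.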
